A study of Mus musculus with 9 samples.

Results

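The genes described here encode the nuclear part of the mitochondrial oxidative phosphorylation machinery: 91 genes of the 16500 listed, all of them among the 13096 tested. They were chosen by symbol and level only. Symbols that begin with Nduf, Uqcr, Cox4 to Cox8 or Atp5, or are Sdha, Sdhb, Sdhc, Sdhd, Cyc1 or Cycs, numbered 101. Of these, 8 hold -ps, a mark used for pseudogenes, and were left out on the symbol alone. Another 2 did not reach 1 CPM (a gene's reads scaled so that all listed genes of a library sum to 1000000) in 3 libraries. Of the 8, 7 have a parent gene among the members, while Ndufb1-ps, at 46.55 to 64.37 CPM, has none. Whether Ndufb1-ps is a pseudogene was not examined. The 91 comprise 7 core and 31 accessory genes of complex I, 8 complex I assembly factors, 4 genes of complex II, 9 of complex III, cytochrome c, 14 of complex IV and 17 of complex V, so 83 are not assembly factors. Just under the level minimum stood Cox4i2, with 0.707, 0.168 and 0.38 CPM with NFAT2-CA, 0.105, 0.275 and 0 CPM with NFAT2-CARIT and 0.595, 0.599 and 0.75 CPM in Control libraries. Just above it stood Ndufs6b, with 1.04, 1.05 and 0.885 CPM with NFAT2-CA, 1.52, 1.13 and 1.65 CPM with NFAT2-CARIT and 0.425, 1.64 and 1.0 CPM in Control libraries.

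The cells were CD4+ T cells isolated from C57BL/6 mice, grown in RPMI-1640 medium with serum and transduced with a retroviral vector, in 9 libraries. The 3 groups of 3 libraries carried NFAT2-CA, a constitutively active form of the calcium-regulated transcription factor NFAT2 (the product of Nfatc1), NFAT2-CARIT, the active form with further changes that impair its cooperation with AP-1 (Fos and Jun proteins), or the Control vector, labelled CTRL. All groups were transduced, so untransduced cells are in no comparison. The labels give neither the share of cells that took up a vector, nor a sort, nor the time after transduction, nor the promoter in the vectors, nor an age. Whether the libraries of a group are separate mice or cultures is not stated either; p-values here therefore speak of the spread among libraries, which may be technical.

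Oxidative phosphorylation makes ATP in the inner mitochondrial membrane. Complex I takes electrons from NADH and complex II takes them from succinate, ubiquinone carries them to complex III, cytochrome c carries them on to complex IV, which reduces oxygen, and complex V uses the proton gradient built by complexes I, III and IV to make ATP. Most subunits are encoded in the nucleus, translated in the cytosol and imported, and separate assembly factors, which are not part of the finished complexes, put them together. T cells enlarge their mitochondria and raise respiration after activation, while they also turn to glycolysis.

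The step between low values put the depth at 19855000 to 38116000 reads per library, so 1 CPM stood for 19.9 to 38.1 reads. Together the members held 0.612% to 0.697% of the listed reads. Nfatc1 had 342, 336 and 396 CPM with NFAT2-CA, 240, 245 and 253 CPM with NFAT2-CARIT and 224, 228 and 188 CPM in Control libraries, where vector and endogenous reads cannot be told apart. All 8 CD4 T cell markers were listed, with summed levels of 6610 to 7050 CPM with NFAT2-CA, 6330 to 6420 CPM with NFAT2-CARIT and 5550 to 5680 CPM in Control libraries. Within that sum Cd4 overlapped between the groups. Cd3e had 901 to 980 CPM with NFAT2-CA, 674 to 736 CPM with NFAT2-CARIT and 410 to 437 CPM in Control libraries. Cd5 went the other way, at 329 to 338 CPM with NFAT2-CA, 363 to 376 CPM with NFAT2-CARIT and 505 to 530 CPM in Control libraries. Of the lists for other cells, both CD8 T cell markers summed to 28.4 to 30.8 CPM with NFAT2-CA, 22.6 to 24 CPM with NFAT2-CARIT and 12.5 to 13.7 CPM in Control libraries. Nearly all of it was Cd8b1, at 27.8 to 30.5 CPM with NFAT2-CA, 20.7 to 22.3 CPM with NFAT2-CARIT and 12.3 to 13.2 CPM in Control libraries. Cd8a had 0.377 to 0.632 CPM with NFAT2-CA, 1.345 to 2.004 CPM with NFAT2-CARIT and 0.1275 to 0.5 CPM in Control libraries. The 3 listed B cell markers of 6 summed to 206 to 211 CPM with NFAT2-CA, 182 to 204 CPM with NFAT2-CARIT and 411 to 422 CPM in Control libraries, nearly all of it Ighm (205 to 210 CPM with NFAT2-CA, 181 to 202 CPM with NFAT2-CARIT and 408 to 419 CPM in Control libraries), while the defining markers Ms4a1 and Pax5 were not among the listed genes. The 4 listed myeloid markers of 7 summed to 14.8 to 18.4 CPM with NFAT2-CA, 16.4 to 20.3 CPM with NFAT2-CARIT and 15.8 to 17.0 CPM in Control libraries, with Lyz2, Csf1r and Adgre1 not among the listed genes. Within that sum Itgam was lower with the vectors, at 0.632 to 0.796 CPM with NFAT2-CA, 0.916 to 1.70 CPM with NFAT2-CARIT and 6.83 to 9.29 CPM in Control libraries, and H2-Eb1 was higher, at 8.60 to 11.8 CPM with NFAT2-CA, 6.89 to 8.82 CPM with NFAT2-CARIT and 3.65 to 4.83 CPM in Control libraries. The 2 listed NK cell markers of 4 summed to 2.56 to 3.12 CPM with NFAT2-CA, 1.59 to 2.3 CPM with NFAT2-CARIT and 8.33 to 10.3 CPM in Control libraries, with Ncr1 and Klrb1c not listed. No erythroid or platelet marker of 4 was listed. The part of these other cells in the results was not tested.

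The members moved little compared with the rest of the transcriptome, and those that moved did not move one way. With NFAT2-CA, 19 members were higher and 7 lower than in Control libraries, and 65 did not pass the test (limma on log2(CPM + 1), adjusted p under 0.05 over all tested genes). That is 28.6% of the members called, against a background of 65.5% of all 13096 tested genes, of which 29.0% were called higher and 36.5% lower. With NFAT2-CARIT, 20 were higher, 18 lower and 53 not past the test against Control, or 41.8% called against a background of 70.3% (29.2% higher, 41.1% lower). Between the vectors, 4 members were higher and 7 lower with NFAT2-CARIT than in the NFAT2-CA libraries, or 12.1% called against a background of 28.6% (11.9% higher, 16.7% lower). Cox6b2 is among these counts, although it reached 1 CPM in no Control library and so met the level minimum only through the NFAT2 libraries.

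The median absolute log2 fold change of the members was 0.13 with NFAT2-CA against Control, where that of all tested genes was 0.37, and it was 0.19 with NFAT2-CARIT against Control, where that of all tested genes was 0.42. The signed medians were 0.03 and 0.02 for the members, beside -0.06 and -0.09 for all tested genes. A change of 2-fold or more was seen for 1 member, Cox6b2, with NFAT2-CA and 3 members, Cox6b2, Ndufaf4 and Ndufaf6, with NFAT2-CARIT against Control, while 13.9% and 17.3% of all tested genes changed that much. The 95% interval of the fold change lay wholly within 1.5-fold of no change for 78 members (85.7%) with NFAT2-CA and 71 members (78%) with NFAT2-CARIT, compared with 48.7% and 44.4% of all tested genes. The median SE of a log2 fold change was 0.09 in both sets, which were not matched for level. Whether precision bears on the share called was not tested. The plot of the members by library shows rows of pale cells with a few strong ones.

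**Figure D1:**
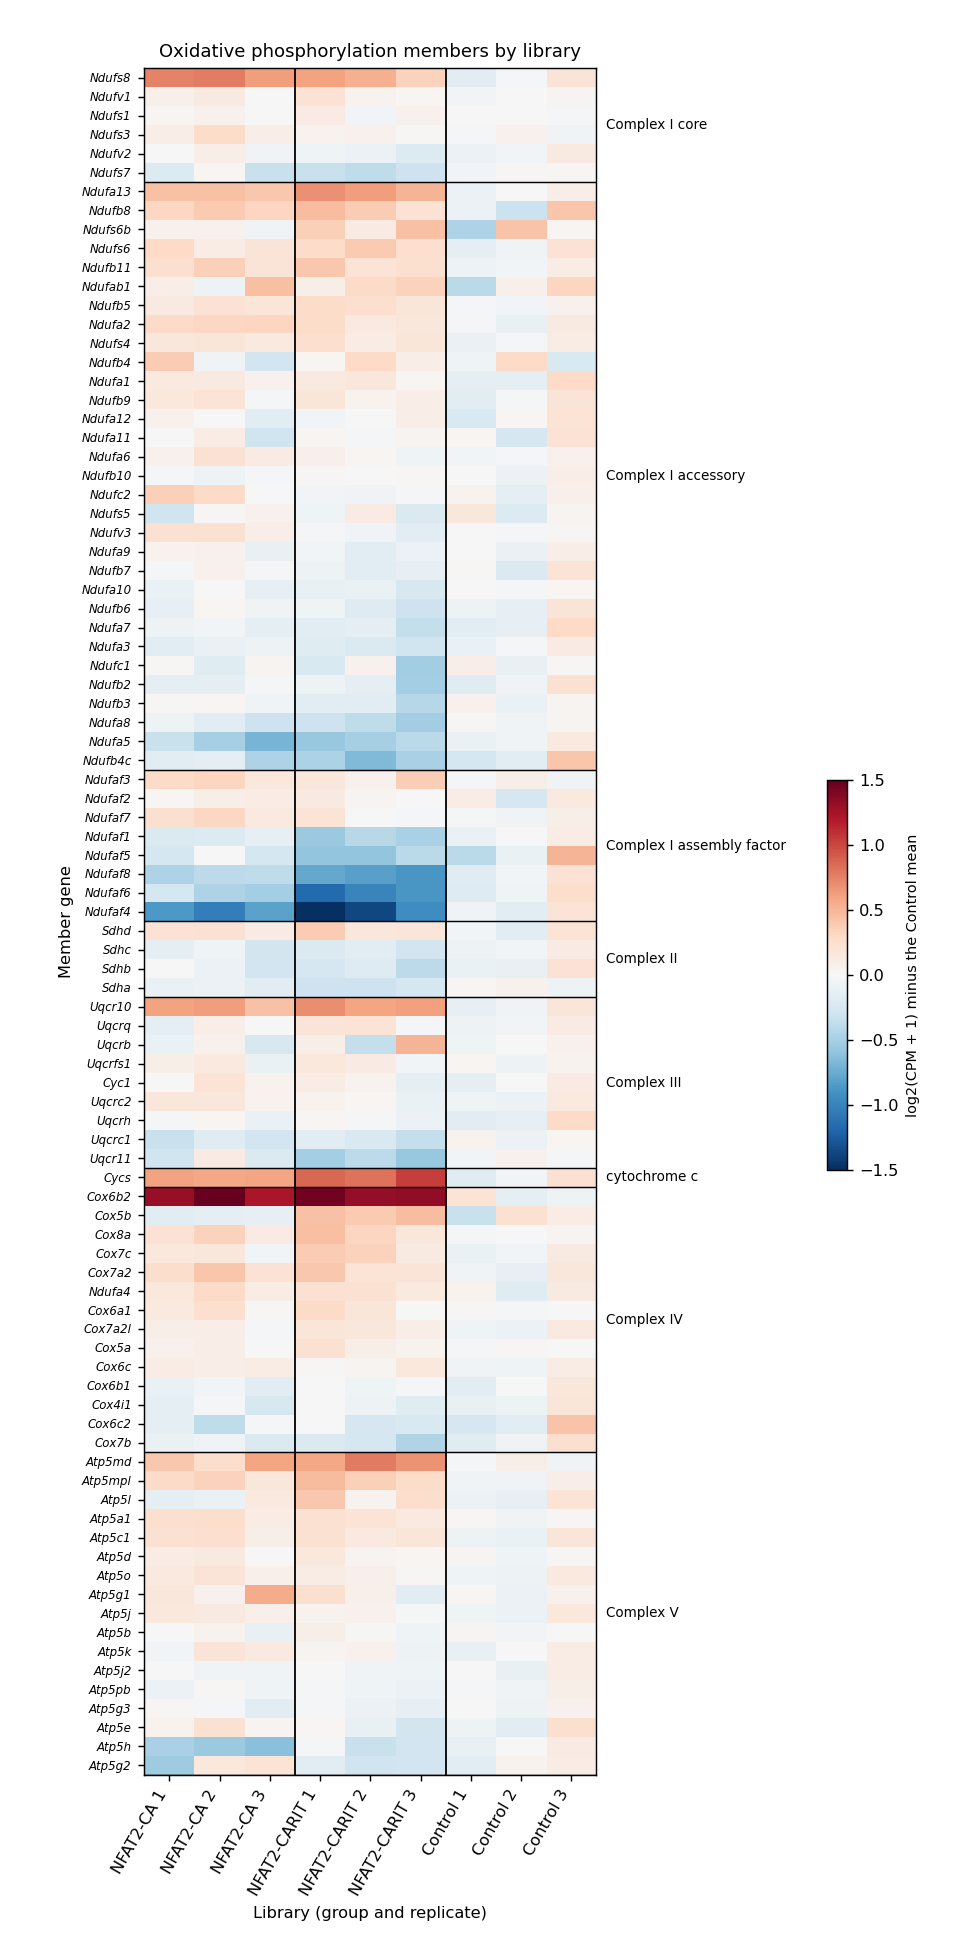
Heat map of log2(CPM + 1) minus the Control mean for members (rows, by complex) in the 9 libraries (columns, 3 NFAT2-CA, 3 NFAT2-CARIT and 3 Control), with colours ending at 1.5 in either direction. Most rows are pale in all libraries, while Cox6b2, Cycs, Ndufs8, Ndufa13 and Uqcr10 are red in the 6 NFAT2 libraries and Ndufaf4, Ndufaf6 and Ndufaf8 are blue there.

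The split between higher and lower calls depended on scaling. As deposited, 73.1% of the members called with NFAT2-CA were higher; with TMM factors, which rest on a trimmed mean of all genes, the counts were 32 higher and 6 lower (84.2% higher). For NFAT2-CARIT the counts with TMM factors were 30 higher and 12 lower (71.4% higher), beside 52.6% as deposited. The TMM factors were 0.962 to 0.996 in the NFAT2 libraries and 1.03 to 1.04 in Control libraries. Dividing by them raised members and other genes alike in the NFAT2 libraries relative to Control. Each library was also scaled to the summed CPM of the members, an alternative chosen after seeing the data. The counts were then 11 higher and 13 lower with NFAT2-CA (45.8% higher), and 17 higher and 23 lower with NFAT2-CARIT (42.5% higher). This scaling sets the members' own sum equal in every library, so a split near balance is built in and does not show their direction. Single libraries weighed on the same split. Control replicate 3 was the highest Control library in 72 of the 91 members (79.1%, beside 41.0% of all tested genes), NFAT2-CA replicate 2 the highest of its group in 57 (62.6%, beside 32.9%) and NFAT2-CARIT replicate 1 the highest of its group in 58 (63.7%, beside 29.6%). Without Control replicate 3, NFAT2-CA had 32 members higher and 5 lower than Control, and NFAT2-CARIT had 26 higher and 15 lower. Without NFAT2-CA replicate 2, NFAT2-CA had 12 members higher and 7 lower. What sets these libraries apart was not tested, and in bulk RNA a smaller number of cells of a type cannot be told apart from less RNA per cell. Shares of all tested genes called with TMM factors or with a library left out are not given here. The member counts under those settings therefore have no background.

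Summed over a complex, most levels overlapped between groups. All members together summed to 6754, 6969 and 6349 CPM with NFAT2-CA, 6889, 6607 and 6338 CPM with NFAT2-CARIT and 6187, 6122 and 6887 CPM in Control libraries. The core genes of complex I were separate, at 388 to 426 CPM with NFAT2-CA and 383 to 417 CPM with NFAT2-CARIT, against 336 to 367 CPM in Control libraries. Of these 7 genes, 2 were called higher with each vector (28.6%, beside 29.0% and 29.2% of all tested genes). The assembly factors summed to 52.9 to 56.3 CPM with NFAT2-CARIT, below the 64.7 to 78.2 CPM of Control libraries, while the NFAT2-CA libraries at 63.5 to 66.2 CPM overlapped Control. Complex II summed to 375 to 390 CPM with NFAT2-CARIT, below the 419 to 441 CPM of Control libraries, and to 388 to 422 CPM with NFAT2-CA. These sums are set mainly by the most abundant genes of each complex.

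**Figure D2:**
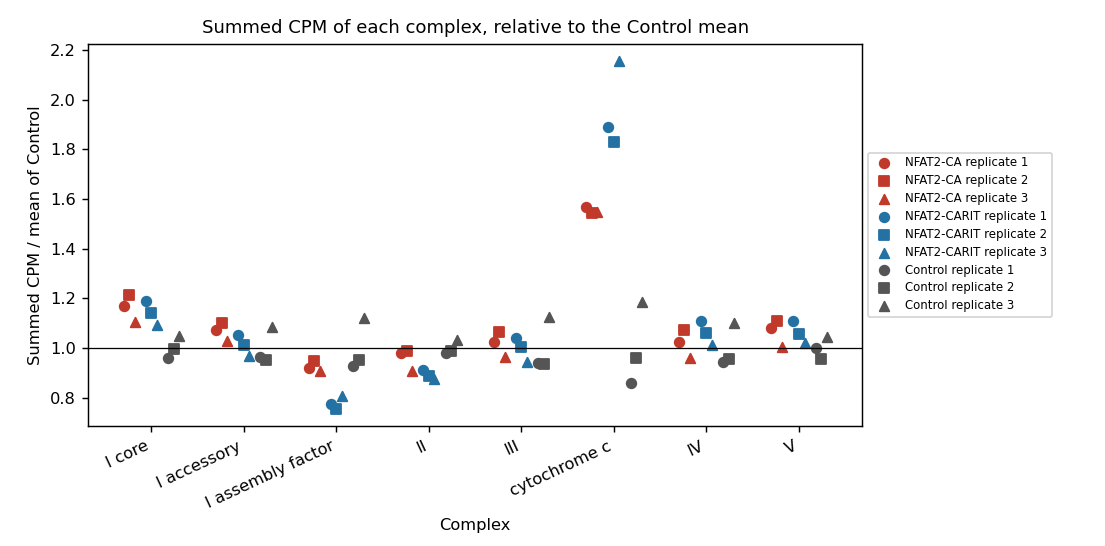
Summed CPM of each complex in each of the 9 libraries, divided by the mean of the 3 Control libraries (points, with shapes for replicates and no error bars). Cytochrome c, a single gene, stands above 1 in all 6 NFAT2 libraries, the assembly factors stand below all Control libraries in the 3 NFAT2-CARIT libraries, and Control replicate 3 is the highest Control library in every class.

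Complex I begins with its core genes, which carry the flavin, the iron-sulfur clusters and the ubiquinone site. Of the 7, 2 were higher and 0 lower with NFAT2-CA, and 2 higher and 1 lower with NFAT2-CARIT, against Control. Their medians were 0.07 and 0.05. That is 28.6% and 42.9% called, against a background of 65.5% and 70.3% of all tested genes. Ndufs8 rose with both vectors, Ndufs7 fell with NFAT2-CARIT, and Ndufs1, Ndufs3, Ndufv1 and Ndufv2 did not pass the test against Control. Ndufs8 encodes the subunit that holds a pair of iron-sulfur clusters on the way to ubiquinone and lies on chromosome 19 (mm10, 3908863 to 3912774, minus strand). It had 52.1, 52.9 and 48.0 CPM with NFAT2-CA, 47.1, 45.1 and 39.2 CPM with NFAT2-CARIT and 27.3, 30.2 and 35.2 CPM in Control libraries. All 6 NFAT2 libraries were above every Control library. The log2 fold change was 0.71 ± 0.09 (SE; limma adjusted p = 3.4e-06) with NFAT2-CA and 0.49 ± 0.09 (adjusted p = 0.00013) with NFAT2-CARIT against Control. Its promoter is shown as that of the core gene with the largest rise with NFAT2-CA. It runs 250 bases before to 50 bases after the start in RefSeq (GRCm38.p6), as do the promoters below, written 5′ to 3′ on the gene's strand. Capitals mark matches to the letters CCGGAAG, of the kind that ETS factors such as GABP bind, or to the NRF1 letters, GCGCA and GCGC with any base between them, searched on both strands. In Ndufs8, at chr19:3912725-3913024 on the minus strand, the ETS letters stand once, as the reverse complement.
Ndufs8: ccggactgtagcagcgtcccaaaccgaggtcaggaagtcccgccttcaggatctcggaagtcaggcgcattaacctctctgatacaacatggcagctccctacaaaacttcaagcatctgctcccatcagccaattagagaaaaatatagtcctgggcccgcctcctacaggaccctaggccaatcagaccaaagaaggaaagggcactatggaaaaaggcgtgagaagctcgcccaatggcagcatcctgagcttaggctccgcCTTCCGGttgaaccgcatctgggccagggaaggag

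Ndufs7, whose iron-sulfur cluster hands electrons to ubiquinone, had 21.7, 25.7 and 19.8 CPM with NFAT2-CA, 19.9, 19.1 and 20.1 CPM with NFAT2-CARIT and 24.5, 25.5 and 25.7 CPM in Control libraries. Its NFAT2-CARIT libraries were all below Control, and NFAT2-CA replicate 2 was level with the highest Control library. The log2 fold changes of Ndufs7 were -0.34 ± 0.09 (limma adjusted p = 0.00237) with NFAT2-CARIT and -0.17 (adjusted p = 0.095) with NFAT2-CA, the last -0.27 (adjusted p = 0.0113) without NFAT2-CA replicate 2. Ndufv1, which binds NADH and flavin, had log2 fold changes of 0.07 with NFAT2-CA and 0.10 with NFAT2-CARIT, and Ndufs1, Ndufs3 and Ndufv2, which carry iron-sulfur clusters or support them, lay between -0.12 and 0.16 in both comparisons. None of these 4 passed the test.

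Accessory genes of complex I surround the core and are needed for its assembly and stability. Of the 31, 6 were higher and 2 lower with NFAT2-CA, and 6 higher and 6 lower with NFAT2-CARIT, against Control, with medians of 0.01 in both. That is 25.8% and 38.7% called, against a background of 65.5% and 70.3% of all tested genes. Ndufa13, also known as GRIM-19, had 90.2, 89.7 and 87.6 CPM with NFAT2-CA, 107, 102 and 94.5 CPM with NFAT2-CARIT and 62, 65.7 and 70.8 CPM in Control libraries. No library of either vector reached down to Control, and the log2 fold changes were 0.43 ± 0.06 (limma adjusted p = 2.2e-05) with NFAT2-CA and 0.61 ± 0.06 (adjusted p = 3.5e-07) with NFAT2-CARIT. Ndufa5 had 10.6, 9.38 and 8.05 CPM with NFAT2-CA, 8.85, 9.36 and 10.1 CPM with NFAT2-CARIT and 12.7, 13.2 and 15.2 CPM in Control libraries. Here every NFAT2 library was below Control, with log2 fold changes of -0.51 ± 0.11 (limma adjusted p = 0.00067) with NFAT2-CA and -0.49 (adjusted p = 0.0008) with NFAT2-CARIT.

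Further accessory genes passed the test. Ndufa2, Ndufb11, Ndufb5 and Ndufs4, the last a subunit whose loss causes Leigh-like disease in mice, rose with both vectors, with log2 fold changes of 0.31, 0.27, 0.18 and 0.16 with NFAT2-CA and 0.20, 0.28, 0.24 and 0.18 with NFAT2-CARIT. Ndufv3 rose with NFAT2-CA by 0.18 ± 0.06 (limma adjusted p = 0.0116), with 217, 218 and 198 CPM there, 183, 178 and 165 CPM with NFAT2-CARIT and 187, 183 and 188 CPM in Control libraries. Ndufs6 rose with NFAT2-CARIT by 0.30 (limma adjusted p = 0.0113), and its value with NFAT2-CA was 0.20 (adjusted p = 0.0825), but 0.31 (adjusted p = 0.0077) without Control replicate 3. Ndufa8 fell by 0.18 with NFAT2-CA and by 0.40 with NFAT2-CARIT, and Ndufa3, Ndufa10, Ndufb3 and Ndufb4c fell with NFAT2-CARIT, by 0.23, 0.15, 0.25 and 0.54. Of Ndufb4c, a near copy of Ndufb4, 100% of the 50-base words in its transcripts recur in other genes, and Ndufb3 lost its call with TMM factors, with quantile normalization, and without NFAT2-CARIT replicate 3 or Control replicate 1. Without Control replicate 3, Ndufb4c was at -0.33 (limma adjusted p = 0.0142) with NFAT2-CARIT. Ndufv3 lost its call without NFAT2-CA replicate 1 or 2 (limma adjusted p = 0.0528 and 0.0543). Ndufa8 lost its call with NFAT2-CA without any single one of NFAT2-CA replicates 2 and 3, NFAT2-CARIT replicate 2 and Control replicates 1 and 3, at -0.19 to -0.11 (limma adjusted p = 0.063 to 0.209), and with TMM factors, at -0.12 (adjusted p = 0.202). Among the raised genes with NFAT2-CA, Ndufb5 lost its call without NFAT2-CA replicate 2 or Control replicate 2, and Ndufs4 without any single one of the 3 NFAT2-CA libraries or of Control replicates 1 and 2 (limma adjusted p = 0.0504 to 0.171 for both). With NFAT2-CARIT, Ndufa2 and Ndufs4 lost theirs without NFAT2-CARIT replicate 1 or Control replicate 1 or 2 (limma adjusted p = 0.0542 to 0.135), Ndufs6 without NFAT2-CARIT replicate 2 or Control replicate 1 (adjusted p = 0.053 and 0.064), Ndufa10 without NFAT2-CARIT replicate 3 or Control replicate 1 (adjusted p = 0.136 and 0.0611), and Ndufa10 and Ndufa3 with TMM factors, at -0.07 and -0.15 (adjusted p = 0.323 and 0.0732). Ndufab1, the mitochondrial acyl carrier protein, had log2 fold changes of 0.16 (limma adjusted p = 0.44) with NFAT2-CA and 0.24 (adjusted p = 0.233) with NFAT2-CARIT. The 23 accessory genes that did not pass the test with NFAT2-CA lay between -0.26 and 0.34, and the 19 with NFAT2-CARIT between -0.24 and 0.36. Ndufb8, at the top of both ranges, was called higher without Control replicate 3. Its values were then 0.55 with NFAT2-CA (limma adjusted p = 3e-05) and 0.56 with NFAT2-CARIT (adjusted p = 2e-05).

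The complex I assembly factors were the class with the lowest medians, at -0.18 with NFAT2-CA and -0.51 with NFAT2-CARIT. With NFAT2-CA, 3 of the 8 were lower (Ndufaf4, Ndufaf6 and Ndufaf8) and 2 higher (Ndufaf3 and Ndufaf7), and with NFAT2-CARIT, 5 were lower and none higher, the counts against Control in limma's test. With NFAT2-CA these shares, 37.5% lower and 25% higher, were close to the 36.5% and 29.0% of all tested genes; with NFAT2-CARIT 62.5% were lower, beside 41.1%. Several of these genes are at a few CPM, where log2(CPM + 1) understates a change. Ndufaf4, which works with Ndufaf3 in an early step around the ubiquinone module, had 3.35, 2.85 and 3.54 CPM with NFAT2-CA, 1.73, 2.06 and 3.16 CPM with NFAT2-CARIT and 6.63, 6.08 and 8.12 CPM in Control libraries. Every NFAT2 library was below every Control library. Its log2 fold changes were -0.90 ± 0.16 (limma adjusted p = 0.00012) with NFAT2-CA and -1.28 ± 0.16 (adjusted p = 2.7e-06) with NFAT2-CARIT. The promoter of Ndufaf4 is shown as that of the member with the largest fall. It lies at chr4:24897833-24898132 on the plus strand (GRCm38.p6, RefSeq), and the capitals mark its 1 match to the NRF1 letters.
Ndufaf4: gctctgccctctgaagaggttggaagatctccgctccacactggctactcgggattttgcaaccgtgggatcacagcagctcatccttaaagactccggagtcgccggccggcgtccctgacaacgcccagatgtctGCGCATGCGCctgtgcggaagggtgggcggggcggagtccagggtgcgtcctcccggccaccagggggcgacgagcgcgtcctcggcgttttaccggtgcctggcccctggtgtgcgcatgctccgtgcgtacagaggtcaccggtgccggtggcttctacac

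Ndufaf8 stabilises Ndufaf5, an enzyme that modifies an arginine of Ndufs7. Ndufaf8 had 3.16, 3.39 and 3.42 CPM with NFAT2-CA, 2.38, 2.28 and 2.15 CPM with NFAT2-CARIT and 4.08, 4.6 and 5.71 CPM in Control libraries. The 3 groups did not overlap. The log2 fold changes were -0.41 ± 0.13 (limma adjusted p = 0.0123) with NFAT2-CA and -0.82 ± 0.13 (adjusted p = 4.5e-05) with NFAT2-CARIT. Ndufaf6, another factor of the ubiquinone module, had 3.53, 2.93 and 2.83 CPM with NFAT2-CA, 1.41, 1.73 and 1.95 CPM with NFAT2-CARIT and 3.74, 4.19 and 5.5 CPM in Control libraries. It was lowest with NFAT2-CARIT, again without overlap, at log2 fold changes of -0.41 ± 0.15 (limma adjusted p = 0.0249) with NFAT2-CA and -1.01 ± 0.15 (adjusted p = 1.6e-05) with NFAT2-CARIT. Without Control replicate 3, the NFAT2-CA values were -0.28 (adjusted p = 0.136) for Ndufaf6 and -0.30 (adjusted p = 0.0723) for Ndufaf8, and Ndufaf6 also lost its call with NFAT2-CA without NFAT2-CA replicate 2, at -0.38 (adjusted p = 0.0688), or replicate 3, at -0.36 (adjusted p = 0.0691).

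Ndufaf1, part of the complex that builds the membrane arm, had 15.8, 16 and 17.0 CPM with NFAT2-CA, 12.3, 13.7 and 12.9 CPM with NFAT2-CARIT and 17.3, 18.5 and 20.1 CPM in Control libraries. It was below Control in every NFAT2 library, with log2 fold changes of -0.49 ± 0.09 (limma adjusted p = 8.9e-05) with NFAT2-CARIT and -0.18 (adjusted p = 0.0709) with NFAT2-CA. Ndufaf5 fell with NFAT2-CARIT by 0.53 ± 0.18 (limma adjusted p = 0.0181), but its Control libraries were spread over 4.42, 5.67 and 9.17 CPM, and without Control replicate 3 the value was -0.27 (adjusted p = 0.109). It was -0.50 without NFAT2-CARIT replicate 1 or replicate 2 (limma adjusted p = 0.0537 and 0.0572). Ndufaf3 and Ndufaf7, a methyltransferase, rose with NFAT2-CA by 0.26 (limma adjusted p = 0.034) and 0.23 (adjusted p = 0.0383), and their values with NFAT2-CARIT were 0.20 (adjusted p = 0.0832) and 0.06. Both calls were lost without NFAT2-CA replicate 1 or 2 or Control replicate 1, that of Ndufaf3 also without Control replicate 3 and that of Ndufaf7 without Control replicate 2, at 0.20 to 0.24 (limma adjusted p = 0.0836 to 0.127). Scaled to the members' summed CPM, of which both are part, they were 0.20 (limma adjusted p = 0.152) and 0.17 (adjusted p = 0.0837). That scaling has a split near balance built in. Ndufaf2, a late factor, had 0.07 with NFAT2-CA and 0.06 with NFAT2-CARIT and did not pass the test.

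**Figure D3:**
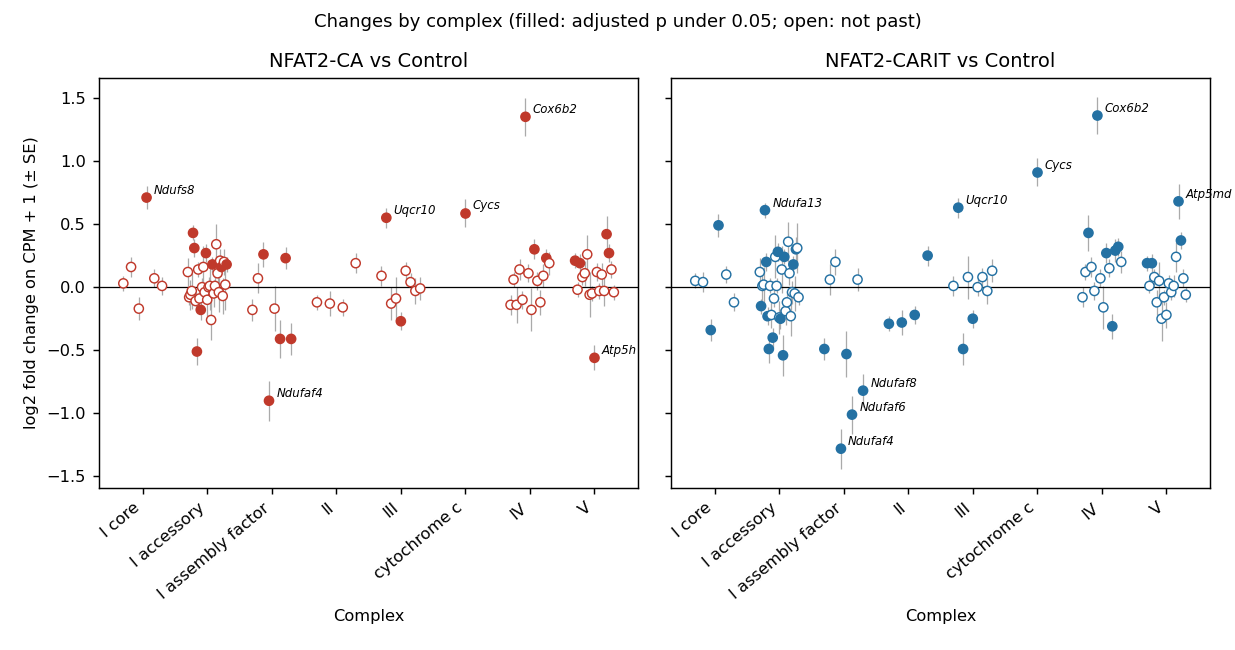
The log2 fold change on CPM + 1 of members (points, with SE bars) by complex, for NFAT2-CA against Control (left) and NFAT2-CARIT against Control (right), filled where the adjusted p was under 0.05. Most points lie near 0, Cox6b2 is highest at 1.35 and 1.36, and Ndufaf4 is lowest at -0.90 and -1.28. The filled points of Cox6b2 are not taken as test results, since it is a member only through the NFAT2 libraries.

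Complex II, succinate dehydrogenase, links the respiratory chain to the tricarboxylic acid cycle and is encoded wholly in the nucleus. None of its 4 genes passed the test with NFAT2-CA, against a background of 65.5%, and with NFAT2-CARIT 3 were lower and 1 higher than in Control libraries, against a background of 70.3%. Without Control replicate 3, Sdha was called lower with NFAT2-CA, at -0.16 (limma adjusted p = 0.0117), and Sdhd higher, at 0.29 (adjusted p = 0.00196). Sdha, the flavoprotein that oxidises succinate, had 215, 218 and 206 CPM with NFAT2-CA, 187, 186 and 192 CPM with NFAT2-CARIT and 233, 242 and 218 CPM in Control libraries. The NFAT2-CARIT libraries were lowest and did not overlap either other group. The log2 fold changes of Sdha were -0.29 ± 0.06 (limma adjusted p = 0.00019) with NFAT2-CARIT and -0.12 (adjusted p = 0.0753) with NFAT2-CA. Sdhb, the iron-sulfur subunit, had 55.8, 52.0 and 45.3 CPM with NFAT2-CA, 46.4, 48.3 and 42 CPM with NFAT2-CARIT and 51.6, 51.4 and 64.7 CPM in Control libraries. Sdhc, a membrane anchor, had 51.0, 53.8 and 46.1 CPM with NFAT2-CA, 48.2, 50.3 and 45.9 CPM with NFAT2-CARIT and 53.2, 54.5 and 61.3 CPM in Control libraries. Both were below Control in all NFAT2-CARIT libraries, by -0.28 ± 0.10 (limma adjusted p = 0.016) for Sdhb and -0.22 ± 0.07 (adjusted p = 0.0136) for Sdhc. These calls were lost without Control replicate 3, at -0.17 (adjusted p = 0.0774) for Sdhb and -0.16 (adjusted p = 0.0608) for Sdhc, and with TMM factors, at -0.20 (adjusted p = 0.0697) for Sdhb and -0.14 (adjusted p = 0.101) for Sdhc. They were also lost without NFAT2-CARIT replicate 3 (limma adjusted p = 0.0683 for Sdhb and 0.0554 for Sdhc).

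Sdhd, the other membrane anchor, went the other way. It had 97.3, 97.8 and 90.7 CPM with NFAT2-CA, 109, 94.0 and 94.8 CPM with NFAT2-CARIT and 80.7, 74.7 and 96.0 CPM in Control libraries. Control replicate 3 lay within the NFAT2 values, and the other Control libraries lay below them. The log2 fold changes of Sdhd were 0.25 ± 0.08 (limma adjusted p = 0.0161) with NFAT2-CARIT and 0.19 (adjusted p = 0.0572) with NFAT2-CA, and the first was no longer called when NFAT2-CARIT replicate 1, Control replicate 1 or Control replicate 2 was left out (adjusted p = 0.0571 to 0.095). The promoters of Sdha and Sdhd are set side by side because genes of a single complex differed in direction. Sdha, at chr13:74350191-74350490 on the minus strand, has 3 matches to the NRF1 letters, and Sdhd, at chr9:50603800-50604099 on the minus strand, has 1 match to them and 1 to CCGGAAG, read as its reverse complement (GRCm38.p6, RefSeq).
Sdha: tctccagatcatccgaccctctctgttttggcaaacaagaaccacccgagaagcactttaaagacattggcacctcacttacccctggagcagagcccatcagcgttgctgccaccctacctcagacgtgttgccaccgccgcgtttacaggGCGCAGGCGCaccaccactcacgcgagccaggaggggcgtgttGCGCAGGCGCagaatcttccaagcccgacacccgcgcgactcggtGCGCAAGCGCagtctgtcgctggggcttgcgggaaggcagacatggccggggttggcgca
Sdhd: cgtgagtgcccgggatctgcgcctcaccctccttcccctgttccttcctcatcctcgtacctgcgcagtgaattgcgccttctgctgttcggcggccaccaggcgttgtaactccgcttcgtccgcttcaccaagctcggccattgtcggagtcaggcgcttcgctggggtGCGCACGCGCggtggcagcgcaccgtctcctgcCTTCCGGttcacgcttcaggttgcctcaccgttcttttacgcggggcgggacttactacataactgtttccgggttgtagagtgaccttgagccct

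Complex III passes electrons from ubiquinol to cytochrome c. Of its 9 genes, Uqcr10 rose and Uqcrc1 fell with both vectors, Uqcr11 fell with NFAT2-CARIT, and the other 6 did not pass the test against Control. The share called was 22.2% with NFAT2-CA and 33.3% with NFAT2-CARIT, against a background of 65.5% and 70.3% of all tested genes. Uqcr10, a small subunit, had 42.8, 43.4 and 38.0 CPM with NFAT2-CA, 45.8, 42.4 and 43.2 CPM with NFAT2-CARIT and 25.5, 26.7 and 31.7 CPM in Control libraries. All NFAT2 libraries were above Control, with log2 fold changes of 0.55 ± 0.08 (limma adjusted p = 1.9e-05) with NFAT2-CA and 0.63 ± 0.08 (adjusted p = 3.6e-06) with NFAT2-CARIT. Uqcrc1, a large core protein on the matrix side, had 74.0, 82.3 and 76.5 CPM with NFAT2-CA, 83.2, 79.7 and 72.6 CPM with NFAT2-CARIT and 96.7, 88.2 and 95.6 CPM in Control libraries. All NFAT2 libraries were below Control, at -0.27 ± 0.07 (limma adjusted p = 0.00227) with NFAT2-CA and -0.25 ± 0.07 (adjusted p = 0.00314) with NFAT2-CARIT.

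Uqcr11, another small subunit, had 4.65, 6.58 and 4.97 CPM with NFAT2-CA, 3.9, 4.31 and 3.71 CPM with NFAT2-CARIT and 5.78, 6.3 and 5.83 CPM in Control libraries. Its fall with NFAT2-CARIT was -0.49 ± 0.13 (limma adjusted p = 0.00304), and the value with NFAT2-CA was -0.13. The catalytic genes were close to Control: Uqcrfs1, the Rieske iron-sulfur protein, had 0.04 with NFAT2-CA and 0.08 with NFAT2-CARIT, and Cyc1, cytochrome c1, had 0.09 with NFAT2-CA and 0.01 with NFAT2-CARIT. Uqcrc2, the partner of Uqcrc1, had 0.13 (limma adjusted p = 0.103) with NFAT2-CA, or 0.20 (adjusted p = 0.00622) without Control replicate 3, and -0.00 with NFAT2-CARIT. The 6 genes not past the test with NFAT2-CARIT, Uqcrb, Uqcrh and Uqcrq among them, lay between -0.03 and 0.13.

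Cytochrome c carries electrons between complexes III and IV, and its release from mitochondria starts the caspase cascade of apoptosis. Cycs, on chromosome 6 (mm10, 50562563 to 50566538, minus strand), had 14.4, 14.2 and 14.2 CPM with NFAT2-CA, 17.4, 16.8 and 19.8 CPM with NFAT2-CARIT and 7.89, 8.8 and 10.9 CPM in Control libraries. The 3 groups did not overlap, with NFAT2-CARIT highest. Mean levels were 14.3 ± 0.13 CPM with NFAT2-CA, 18.0 ± 1.59 CPM with NFAT2-CARIT and 9.19 ± 1.53 CPM in Control libraries (SD, n = 3 each), a ratio to Control of 1.55 and 1.96. The log2 fold changes were 0.59 ± 0.11 (limma adjusted p = 0.00013) with NFAT2-CA and 0.91 ± 0.11 (adjusted p = 1.2e-06) with NFAT2-CARIT. In the transcripts of Cycs, 28.2% of 50-base words recur in other genes. Its promoter, at chr6:50566520-50566819 on the minus strand (GRCm38.p6, RefSeq), is shown because Cycs had the largest rise after Cox6b2 with NFAT2-CARIT; neither the NRF1 letters nor CCGGAAG stand in this window, so it has no capitals.
Cycs: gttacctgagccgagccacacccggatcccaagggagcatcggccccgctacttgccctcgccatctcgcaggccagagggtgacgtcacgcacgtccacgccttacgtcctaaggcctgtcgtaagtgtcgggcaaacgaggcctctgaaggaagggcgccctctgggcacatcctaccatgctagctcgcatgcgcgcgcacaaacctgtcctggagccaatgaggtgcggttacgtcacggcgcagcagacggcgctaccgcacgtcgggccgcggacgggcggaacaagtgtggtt

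Complex IV, cytochrome c oxidase, has its catalytic subunits encoded in mitochondrial DNA, which is not analysed here. Of its 14 nuclear members, 3 were higher and none lower with NFAT2-CA, and 5 were higher and 1 lower with NFAT2-CARIT, against Control. That is 21.4% and 42.9% called, against a background of 65.5% and 70.3% of all tested genes. Cox6b2 counts among the higher ones with both vectors. Cox6b2 is the isoform of a subunit on the outer face that is known mainly from testis. No Control library reached 1 CPM, so it is a member only through the libraries where it is high, and its difference from Control is given as a description with no p-value. Cox6b2, on chromosome 7 (mm10, 4751792 to 4753094, minus strand), had 3.23, 3.94 and 2.99 CPM with NFAT2-CA, 3.67, 3.27 and 3.31 CPM with NFAT2-CARIT and 0.977, 0.567 and 0.625 CPM in Control libraries. It was low everywhere and lowest in Control, with no overlap. Mean levels were 3.39 ± 0.491 CPM with NFAT2-CA, 3.41 ± 0.219 CPM with NFAT2-CARIT and 0.723 ± 0.222 CPM in Control libraries (SD, n = 3 each), which is 4.69 and 4.72 times Control. On the log2(CPM + 1) scale the differences were 1.35 ± 0.15 with NFAT2-CA and 1.36 ± 0.15 with NFAT2-CARIT.

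Cox7a2 and Cox8a, small subunits of the forms found in most tissues, rose with both vectors. Cox8a had 164, 180 and 154 CPM with NFAT2-CA, 193, 177 and 160 CPM with NFAT2-CARIT and 138, 140 and 145 CPM in Control libraries, without overlap with Control. Its log2 fold changes were 0.23 (limma adjusted p = 0.0113) with NFAT2-CA and 0.32 (adjusted p = 0.00099) with NFAT2-CARIT, and those of Cox7a2 were 0.30 (adjusted p = 0.00445) with NFAT2-CA and 0.27 (adjusted p = 0.00882) with NFAT2-CARIT. Cox8a lost its call with NFAT2-CA without NFAT2-CA replicate 2, at 0.17 (limma adjusted p = 0.0719). Cox7a2 with NFAT2-CARIT was 0.20 without NFAT2-CARIT replicate 1 (limma adjusted p = 0.0537) and 0.21 without Control replicate 2 (adjusted p = 0.0501). Cox7c rose with NFAT2-CARIT by 0.29 (limma adjusted p = 0.00944), and Cox7b fell with NFAT2-CARIT by 0.31 (adjusted p = 0.0112). Cox7b was at -0.19 (limma adjusted p = 0.0459) without Control replicate 3, and lost its call without NFAT2-CARIT replicate 3, at -0.24 (adjusted p = 0.0518), and with TMM factors, at -0.23 (adjusted p = 0.051). Cox4i1, the common form of the largest nuclear subunit, and Cox5a had log2 fold changes of -0.14 and 0.06 with NFAT2-CA and -0.08 and 0.12 with NFAT2-CARIT, and did not pass the test. Neither did Cox6a1, Ndufa4, now counted to complex IV, and Cox7a2l, a factor of supercomplexes, at 0.14, 0.19 and 0.05 with NFAT2-CA and 0.16, 0.20 and 0.15 with NFAT2-CARIT. Without Control replicate 3, Ndufa4 and Cox7a2l were called higher with both vectors, at 0.25 and 0.13 with NFAT2-CA (limma adjusted p = 0.0281 and 0.0376) and 0.26 and 0.23 with NFAT2-CARIT (adjusted p = 0.0213 and 0.00114). Without replicate 3 of the vector compared, Cox6a1 was called higher, at 0.20 with NFAT2-CA (limma adjusted p = 0.0399) and 0.24 with NFAT2-CARIT (adjusted p = 0.0132).

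Cox5b was called higher with NFAT2-CARIT, at 0.43 ± 0.14 (limma adjusted p = 0.0116) against Control, but 21.8% of the 50-base words in its transcripts recur in another gene, and a pseudogene row, Cox5b-ps, is listed beside it. Cox5b had 3.94, 4.02 and 4.05 CPM with NFAT2-CA, 6.45, 6.21 and 6.62 CPM with NFAT2-CARIT and 3.36, 5.45 and 4.96 CPM in Control libraries. The row Cox5b-ps held more, with 20.6, 23.0 and 17.6 CPM with NFAT2-CA, 22.9, 21.5 and 20.9 CPM with NFAT2-CARIT and 20.9, 19.8 and 26.9 CPM in Control libraries. With both rows added together, an alternative chosen after seeing the data, the change was 0.07 (limma adjusted p = 0.574), and without Control replicate 1 that of Cox5b alone was 0.26 (adjusted p = 0.0821). The deposited values alone do not show from which of the 2 genes the reads came.

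Complex V, the ATP synthase, had 4 members higher and 1 lower with NFAT2-CA and 4 higher and none lower with NFAT2-CARIT, of 17, against Control. The share called was 29.4% with NFAT2-CA and 23.5% with NFAT2-CARIT, against a background of 65.5% and 70.3% of all tested genes. Atp5a1, the alpha subunit of the catalytic head, had 518, 523 and 473 CPM with NFAT2-CA, 510, 504 and 486 CPM with NFAT2-CARIT and 447, 423 and 442 CPM in Control libraries. Control was lowest without overlap. The log2 fold changes were 0.21 ± 0.06 (limma adjusted p = 0.0045) with NFAT2-CA and 0.19 ± 0.06 (adjusted p = 0.00596) with NFAT2-CARIT. Both calls were lost with scaling to the members' summed CPM, of which Atp5a1 is itself part, at 0.14 and 0.15. Atp5b, the beta subunit that carries the catalytic sites, had -0.02 with NFAT2-CA and 0.01 with NFAT2-CARIT and did not pass the test, nor did Atp5g1, Atp5g2 and Atp5g3, which encode the same c-subunit of the rotor, at 0.26, -0.06 and -0.05 with NFAT2-CA and 0.05, -0.25 and -0.08 with NFAT2-CARIT. Atp5c1, the gamma subunit of the central stalk, was called higher at 0.19 with each vector (limma adjusted p = 0.0306 and 0.0304), although Control replicate 3 lay among the NFAT2 libraries. These calls were lost without Control replicate 1 or 2, without NFAT2-CA replicate 1 or 2 for NFAT2-CA, and without NFAT2-CARIT replicate 1 or 3 for NFAT2-CARIT, at 0.14 to 0.19 (limma adjusted p = 0.0574 to 0.14).

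Atp5md, Atp5mpl and Atp5h were the other genes of complex V that passed the test against Control. Atp5md, also known as DAPIT, had 2.38, 2.05 and 2.83 CPM with NFAT2-CA, 2.8, 3.38 and 3.06 CPM with NFAT2-CARIT and 1.49, 1.7 and 1.46 CPM in Control libraries. It rose without overlap, by 0.42 ± 0.14 (limma adjusted p = 0.0153) with NFAT2-CA and 0.68 ± 0.14 (adjusted p = 0.00043) with NFAT2-CARIT, and the first call was lost without NFAT2-CA replicate 3. Atp5mpl rose by 0.27 ± 0.07 (limma adjusted p = 0.00284) with NFAT2-CA and 0.37 ± 0.07 (adjusted p = 0.00018) with NFAT2-CARIT. Atp5h, subunit d of the side stalk, had 10.8, 10.2 and 9.65 CPM with NFAT2-CA, 15.2, 12.1 and 12.5 CPM with NFAT2-CARIT and 14.2, 15.4 and 16.9 CPM in Control libraries. The NFAT2-CA libraries were lowest and apart from both other groups, at -0.56 ± 0.10 (limma adjusted p = 0.00016) against Control, while NFAT2-CARIT gave -0.22 (adjusted p = 0.0707), or -0.31 (adjusted p = 0.0164) without NFAT2-CARIT replicate 1. The 12 genes of complex V not past the test with NFAT2-CA lay between -0.06 and 0.26, and the 13 with NFAT2-CARIT between -0.25 and 0.24.

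**Figure D4:**
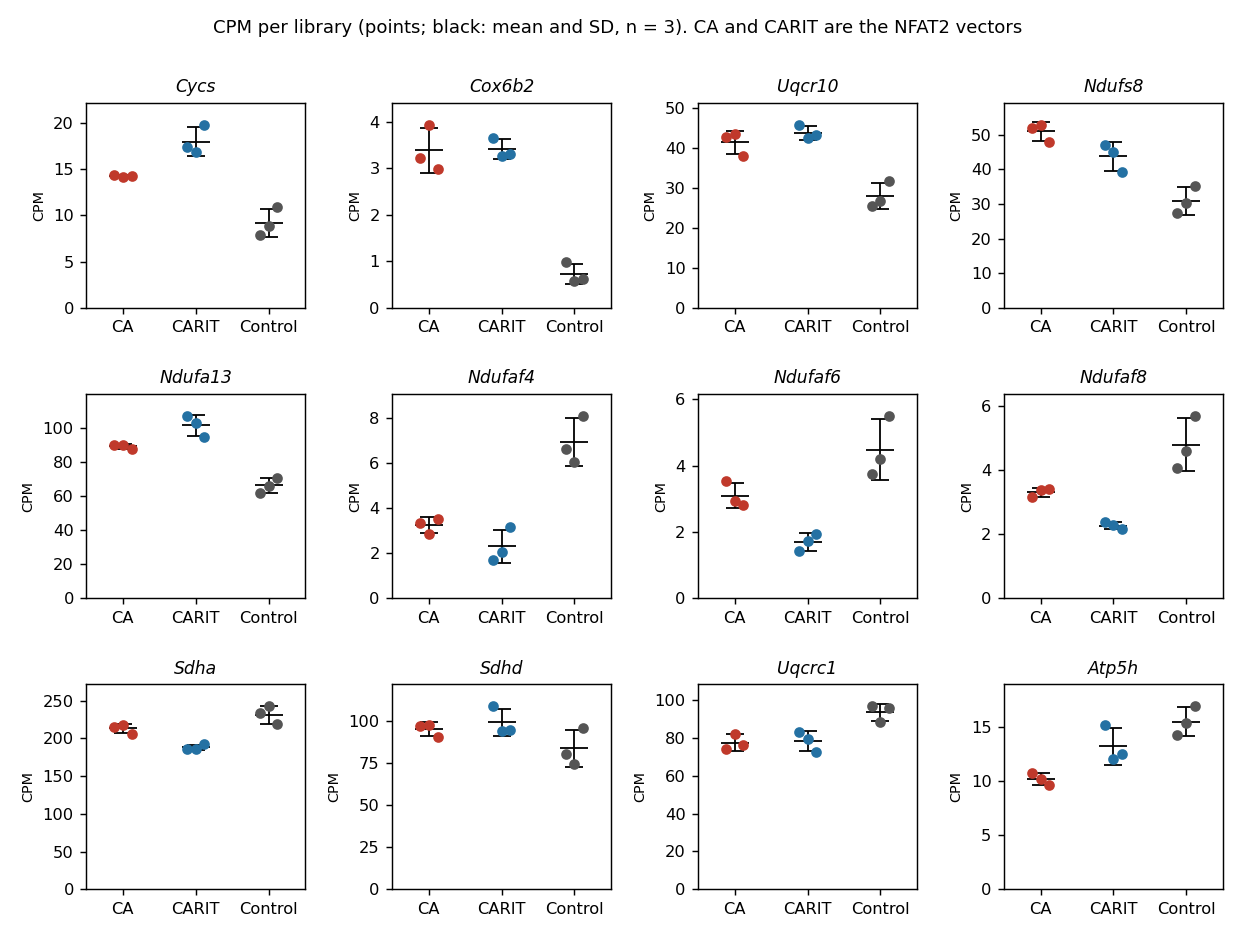
CPM in each library (points) with the mean and SD (black, n = 3) for 12 members, by vector. Cycs, Cox6b2, Uqcr10, Ndufs8 and Ndufa13 are above Control in all 6 NFAT2 libraries, Ndufaf4, Ndufaf6, Ndufaf8 and Uqcrc1 are below it, Sdha is lowest with NFAT2-CARIT, Atp5h is lowest with NFAT2-CA, and Sdhd overlaps Control.

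The 2 vectors, which differ in cooperation with AP-1, were also compared with each other. Nfatc1 differed between them too, at 240 to 253 CPM with NFAT2-CARIT and 336 to 396 CPM with NFAT2-CA, and a difference in AP-1 cooperation cannot be told apart from one in level. The 4 members higher with NFAT2-CARIT than in NFAT2-CA libraries were Cycs, Ndufa13, Cox5b and Atp5h, and the 7 lower ones were Ndufaf1, Ndufaf6, Ndufaf8, Ndufa8, Ndufb3, Ndufv3 and Sdha. Of the libraries given above, those of Ndufv3, Ndufaf6 and Sdha lay lower with NFAT2-CARIT without overlap, with differences of -0.27 ± 0.06 (limma adjusted p = 0.00278), -0.60 ± 0.15 (adjusted p = 0.00667) and -0.18 ± 0.06 (adjusted p = 0.0259). Those of Ndufaf1 and Ndufaf8 also lay lower without overlap, with differences of -0.30 (limma adjusted p = 0.0135) and -0.40 (adjusted p = 0.0333). All 8 assembly factors had negative values in this comparison, as did 7269 of the 13096 tested genes, with medians of -0.33 and -0.03. Of the 8, 3 passed the test, or 37.5% called lower, beside 16.7% of all tested genes. Atp5h was higher with NFAT2-CARIT by 0.34 ± 0.10 (limma adjusted p = 0.0204) and Cycs by 0.31 ± 0.11 (adjusted p = 0.038). Cycs was no longer called when any single library of either vector was left out (adjusted p = 0.0527 to 0.145), nor was Ndufaf8 (adjusted p = 0.0582 to 0.0864), and Ndufa13, at 0.18 ± 0.06 (adjusted p = 0.0454), lost its call without any single one of 5 of the 6 libraries of the vectors. Sdha lost its call in this comparison without NFAT2-CA replicate 1 or 2 or NFAT2-CARIT replicate 1 or 2 (limma adjusted p = 0.0737 to 0.0961), Atp5h without NFAT2-CA replicate 2 or 3 or NFAT2-CARIT replicate 1 (adjusted p = 0.0536 to 0.113), and Ndufaf1 without NFAT2-CARIT replicate 1 (adjusted p = 0.0566). Ndufa8, at -0.23 (limma adjusted p = 0.0345), lost its call without NFAT2-CA replicate 1 or 2 or NFAT2-CARIT replicate 2 or 3 (adjusted p = 0.076 to 0.157). Ndufb3, at -0.25 (limma adjusted p = 0.0352), lost its call without NFAT2-CA replicate 1 or 2 (adjusted p = 0.0981 and 0.102), without NFAT2-CARIT replicate 3, at -0.16 (adjusted p = 0.169), and with TMM factors or quantile normalization (adjusted p = 0.0558 and 0.0781). Cox5b, at 0.57 ± 0.14 (adjusted p = 0.0057), lost its call with Cox5b-ps added, at 0.21 (adjusted p = 0.136). The higher share of the calls was 36.4% as deposited and 62.5% with quantile normalization, at 5 higher and 3 lower. For 82 members (90.1%) the 95% interval of the difference between the vectors lay within 1.5-fold, compared with 77.5% of all tested genes.

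Genes that act around the complexes were read out from lists. The assembly factors of complexes I to V outside the Nduf names, 45 genes, had 3 higher and 20 lower with NFAT2-CA (median -0.20) and 2 higher and 30 lower with NFAT2-CARIT (median -0.36) against Control, beside medians of -0.06 and -0.09 over all tested genes. The share called lower was 44.4% with NFAT2-CA, beside 36.5% of all tested genes, and 66.7% with NFAT2-CARIT, beside 41.1%. With TMM factors the counts were 5 higher and 16 lower with NFAT2-CA, and 4 higher and 26 lower with NFAT2-CARIT. NFAT2-CARIT against NFAT2-CA gave 1 higher and 7 lower, but 3 higher and 0 lower with quantile normalization. Among those of complex I, Dmac1 had 19.0 ± 0.822 CPM with NFAT2-CA and 33.5 ± 4.65 CPM in Control libraries (SD, n = 3 each), a log2 fold change of -0.78 ± 0.09 (limma adjusted p = 1.1e-06), and it stood at -0.91 ± 0.09 with NFAT2-CARIT. Tmem186 and Acad9 had -0.39 and -0.23 with NFAT2-CA and -0.76 and -0.47 with NFAT2-CARIT, all called. Ecsit fell by 0.50 with NFAT2-CARIT, and Foxred1 rose by 0.24 with NFAT2-CA.

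Lrpprc, which keeps mitochondrial messenger RNAs stable and is needed for complex IV, had 16.2 ± 1.84 CPM with NFAT2-CA, 14.5 ± 2.19 CPM with NFAT2-CARIT and 37.3 ± 1.76 CPM in Control libraries, at -1.15 ± 0.11 with NFAT2-CA (limma adjusted p = 7.8e-08) and -1.31 ± 0.11 with NFAT2-CARIT (adjusted p = 1.4e-08). Cox10, which farnesylates haem for complex IV, fell by 1.0 with NFAT2-CA and 0.69 with NFAT2-CARIT, and Taco1, a translational activator, by 0.74 with NFAT2-CA and 1.0 with NFAT2-CARIT. Sco2, a copper chaperone at mean levels under 3 CPM in every group, fell by 1.05 with NFAT2-CA and 1.29 with NFAT2-CARIT. Cox17, which delivers copper to complex IV, rose by 0.53 with NFAT2-CA and 0.51 with NFAT2-CARIT. For complex III, Uqcc3 and Uqcc1 had -0.58 and -0.33 with NFAT2-CA and -0.81 and -0.62 with NFAT2-CARIT. For complex V, Fmc1, Atpaf2 and Atpaf1 had -0.42, -0.41 and -0.37 with NFAT2-CA and -0.44, -0.54 and -0.47 with NFAT2-CARIT, all called. Of the complex II factors, Sdhaf3 fell by 0.39 with NFAT2-CA and 0.57 with NFAT2-CARIT, and Sdhaf4 fell by 0.67 with NFAT2-CARIT.

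Gpd2 and Dhodh, which feed electrons to ubiquinone by other routes, differed from Control by more than any member did with the same vector. Of 19 genes for ubiquinone synthesis and other electron donors, 4 were higher and 4 lower with NFAT2-CA, and 3 higher and 10 lower with NFAT2-CARIT, or 42.1% and 68.4% called, against a background of 65.5% and 70.3%. Gpd2, the mitochondrial glycerol 3-phosphate dehydrogenase that passes electrons from cytosolic NADH to ubiquinone without complex I, had 72.7 ± 3.7 CPM with NFAT2-CA, 39.1 ± 1.85 CPM with NFAT2-CARIT and 5.8 ± 0.904 CPM in Control libraries (SD, n = 3 each). The log2 fold changes of Gpd2 were 3.45 ± 0.09 (limma adjusted p = 1.4e-14) with NFAT2-CA and 2.57 ± 0.09 (adjusted p = 3.3e-13) with NFAT2-CARIT, and NFAT2-CARIT against NFAT2-CA gave -0.88 ± 0.09 (adjusted p = 2.2e-06). Dhodh, an enzyme of pyrimidine synthesis, had 2.42 ± 0.233 CPM with NFAT2-CA, 1.4 ± 0.213 CPM with NFAT2-CARIT and 9.01 ± 1.36 CPM in Control libraries, at -1.54 ± 0.14 with NFAT2-CA and -2.06 ± 0.14 with NFAT2-CARIT. Coq2 and Coq8a, of ubiquinone synthesis, fell by 0.74 and 0.50 with NFAT2-CA and by 0.90 and 1.06 with NFAT2-CARIT, and Coq10b rose by 0.95 with NFAT2-CA and 1.28 with NFAT2-CARIT.

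The tricarboxylic acid cycle and pyruvate dehydrogenase list, 18 genes, was mixed, with 5 higher and 6 lower with NFAT2-CA and 5 higher and 11 lower with NFAT2-CARIT. With NFAT2-CA the shares, 27.8% higher and 33.3% lower, were close to the 29.0% and 36.5% of all tested genes, and with NFAT2-CARIT they were 27.8% and 61.1%, beside 29.2% and 41.1%. Idh3g and Cs, the last being citrate synthase, rose by 0.70 and 0.54 with NFAT2-CA and by 0.65 and 0.46 with NFAT2-CARIT. Pdha1, of the entry point of pyruvate, fell by 0.77 with NFAT2-CA and 0.65 with NFAT2-CARIT. Idh3a, which encodes the catalytic partner of Idh3g, had 24.7 ± 0.827 CPM with NFAT2-CA, 14.0 ± 2.21 CPM with NFAT2-CARIT and 24.6 ± 0.361 CPM in Control libraries, at 0.01 with NFAT2-CA (limma adjusted p = 0.942) and -0.78 with NFAT2-CARIT (adjusted p = 1.7e-06). Of 16 regulators of mitochondrial biogenesis, 2 were higher and 10 lower with NFAT2-CA and 2 higher and 11 lower with NFAT2-CARIT. The shares called lower were 62.5% and 68.8%, beside 36.5% and 41.1% of all tested genes. The coactivator Ppargc1b, its partner Esrra, the mitochondrial RNA polymerase Polrmt and the packaging factor Tfam fell, at -1.59, -0.84, -0.89 and -0.35 with NFAT2-CA and -1.89, -0.92, -0.95 and -0.43 with NFAT2-CARIT. Gabpb1, a subunit of the ETS factor GABP, rose by 1.53 with NFAT2-CA and 1.65 with NFAT2-CARIT, and Polg2, of the mitochondrial DNA polymerase, by 0.58 with NFAT2-CA and 1.10 with NFAT2-CARIT. Nrf1 had 0.14 with NFAT2-CA and 0.08 with NFAT2-CARIT and did not pass the test. Of 8 carriers and pores, 2 were higher and none lower with NFAT2-CA, and 3 higher and 1 lower with NFAT2-CARIT, or 25% and 50% called, against a background of 65.5% and 70.3%. Slc25a4, the ADP and ATP exchanger, rose by 0.61 with NFAT2-CA and 1.05 with NFAT2-CARIT, and Mpc1, of the pyruvate carrier, by 0.46 with NFAT2-CA and 0.33 with NFAT2-CARIT.

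**Figure D5:**
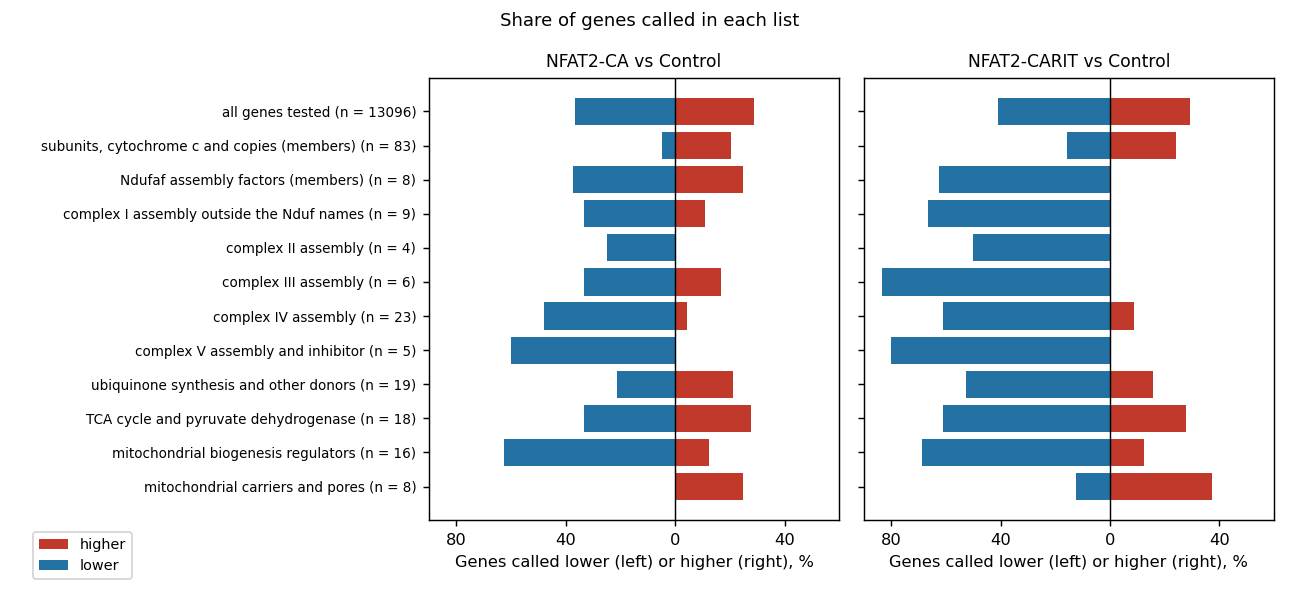
Share of genes called higher (right, red) or lower (left, blue) in each list, in percent of its tested genes, for NFAT2-CA against Control (left panel) and NFAT2-CARIT against Control (right panel). The 83 subunit members have shorter bars than all 13096 tested genes, at 20.5% higher and 4.82% lower with NFAT2-CA and 24.1% and 15.7% with NFAT2-CARIT.

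Promoter letters were counted as a description of what the members share. RefSeq promoters (GRCm38.p6) were matched for 74 of the 91 members. The NRF1 letters stood in 19 of them (25.7%), beside 12.3% of the promoters of 9204 tested genes and 5.19% of all 27025 promoters of the same length. CCGGAAG stood in 19 (25.7%), beside 21.8% and 9.93%. The NFAT core GGAAAN stood in 60.8% of the members' promoters (63.3% and 64.3%), where brackets give the tested genes and then all promoters. The AP-1 letters TGANTCA stood in 9.46% (5.87% and 8.97%) and the TATA letters TATAAA in 8.11% (8.27% and 15.7%). Promoters with both the NFAT core and the AP-1 letters were 6 of the members' 74, or 8.11% (3.54% and 5.74%). Both strands were searched, and at a single GGAA core a match to CCGGAAG cannot also be a match to GGAAAN. Of the 19 members with the NRF1 letters, 1 was higher and 5 lower with NFAT2-CA and 3 higher and 6 lower with NFAT2-CARIT, and of the 55 without them, 14 were higher and 1 lower with NFAT2-CA and 13 higher and 9 lower with NFAT2-CARIT. The medians with and without the NRF1 letters were -0.06 and 0.06 with NFAT2-CA, and -0.05 and 0.04 with NFAT2-CARIT. Of the 19 members with CCGGAAG, 3 were higher and 2 lower with NFAT2-CA and 4 higher and 4 lower with NFAT2-CARIT. Of the 55 without it, 12 were higher and 4 lower with NFAT2-CA and 12 higher and 11 lower with NFAT2-CARIT. The same splits were not made over all tested genes, so they have no background. These counts have no test, and the absence of letters speaks only of this window.

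Shared sequence limits some rows. Of the 89 members found in GENCODE M21, 16 share at least 20% of the 50-base words of their transcripts with other genes, and 47 share none. The 16 include Atp5l (68.5%), Uqcrb (43.2%), Atp5g2 (38.3%), Ndufb4 (37.0%), Atp5h (36.9%) and Cox5b (21.8%). Their median level was 9.75 CPM, against 51.6 CPM for the other 73, and how reads were assigned there is not given in the sources used here. Like Cox5b, Ndufa12 had less than its pseudogene row, at 3.05 to 4.47 CPM beside 12.3 to 16.9 CPM over the 9 libraries.

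The authors' deposited table, made with DESeq2 per the submitters' processing notes, calls fewer genes in all (21.9% of its genes for NFAT2-CA and 25.6% for NFAT2-CARIT against Control, and 2.84% between the vectors, at its FDR under 0.05). In the authors' deposited table Atp5a1, Ndufa13 and Ndufs8 are among the members called higher with NFAT2-CA, and none is called lower. For NFAT2-CARIT the authors' deposited table calls Cox8a, Cycs, Ndufa13 and Uqcr10 higher, among others, and Ndufaf4 and Sdha lower. Cox6b2, a member only through the libraries where it is high, is among its calls for both vectors and is not taken as support. Between the vectors it calls 0 members, where limma had 11 at an adjusted p under 0.05 and 18 at an unadjusted p under 0.05.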

How the data were processed

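RNA-seq values of 9 libraries, 3 per group, were analysed. The authors deposited CPM per gene, which sum to the same total in each library, and added 0.0001 to each, which was subtracted here. The authors' comparison table, per the file headers, holds a p-value, an FDR, a ratio of group means and its log2 for each comparison. Partek 10, DESeq2 and mm10 are named in the submitters' processing notes; aligner, annotation and strand use: not given in the sources used here. Gene coordinates are those of the authors' file.

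Genes with at least 1 CPM in 3 libraries were fitted with limma 3.58.1 (R 4.3.3) on log2(CPM + 1) as 3 group means over all 9 libraries, with trend and robust empirical Bayes, Benjamini-Hochberg adjustment over 13096 genes, and calls at an adjusted p under 0.05; a fold change on this scale understates that of low genes. Low values were whole multiples of 1 read, within 0.1 read, in 82.1% to 84.7% of cases, below the 95% asked for, so reads were not rebuilt. Intervals are 95%. TMM factors were computed in R from the deposited CPM; Python 3.11.15, NumPy 2.4.6, pandas 2.3.3 and matplotlib 3.10.9 did the rest. The fit was tested on simulated data.

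Named were members with defined roles, whatever their result, and, per comparison, the 5 most raised and 5 most lowered members that were called without overlap; up to 4 called genes per related list were named. Nrf1, Tfam, Sdhd's promoter, Ndufaf2 and the other members named outside this rule were chosen after their values were seen. Members and lists were chosen with earlier results of these data known. Ndufa4l2, Cox6a2, Coa1, Pet117 and Ppargc1a were not analysed here. Some genes that count towards the totals are not reported here by name and are not drawn in the plots of single genes.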

Additional observations from a re-analysis of the deposited data

How the results depend on the processing

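Tried were pseudocounts of 0.5 and 5, a filter of 10 CPM or none, the 6 libraries of a comparison alone, a replicate block, quantile normalization, TMM factors, leaving out each library, the authors' deposited table, and 2 chosen after seeing the data (pseudogene rows added to their parents, and scaling to the members' summed CPM). Over these settings the 91 members gave 5403 values for 273 results, of which 5090 kept their side of the threshold, 202 lost their call, 111 gained one and none was called on one side and had the other sign. With a pseudocount of 5, called values of members at a few CPM were over 1.5 times smaller, such as 0.55 and 0.56 for Cox6b2 and -0.53 and -0.71 for Ndufaf4 with NFAT2-CA and NFAT2-CARIT against Control, since a larger constant is added.

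Counts of members moved by over 1.5 times as follows. Scaling to the members has a split near balance built in. That scaling and the 10 CPM filter apart, the cause was not tested. For NFAT2-CA against Control, members higher were 32 with TMM factors, 11 with scaling to the members and 5 in the authors' deposited table, beside 19. Members lower were 4 with the 10 CPM filter, 13 with scaling to the members and 0 in the authors' deposited table, beside 7. Ndufaf4, Ndufaf6 and Ndufaf8 stayed under 10 CPM in every library, so that filter left them untested. No member that was tested lost its call with it. For NFAT2-CARIT against Control, the authors' deposited table had 6 higher and 2 lower, beside 20 and 18. For NFAT2-CARIT against NFAT2-CA, members lower were 3 with quantile normalization, 11 with only the 6 libraries compared, 4 with scaling to the members (2 higher) and 0 in the authors' deposited table (0 higher), beside 7 and 4.

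With 1 library left out, NFAT2-CA against Control had 12 to 32 members higher and 5 to 11 lower, NFAT2-CARIT against Control 14 to 26 higher and 13 to 20 lower, and NFAT2-CARIT against NFAT2-CA 1 to 4 higher and 3 to 11 lower. For these and the other settings, the authors' deposited table apart, the share of all tested genes called is not given here. With the replicate number as a block, the counts were 15 higher and 7 lower, 19 and 18, and 3 and 8; deviations of same-numbered libraries correlated at -0.069 to 0.259, not above 0.1 in every pair, so the numbers were not taken to pair the libraries. Depth limits members at a few CPM, such as Cox6b2 in Control libraries, where 3 reads equal 0.0948 to 0.128 CPM.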
